A study of Mus musculus with 30 samples.

Results

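Deletion I is a 19.55 Mb heterozygous deletion of the X chromosome in mouse embryonic stem cells (mESCs), and its members here are the 2 libraries of the line, clone 1 and clone 2, of 30 bulk RNA-seq libraries in the series. They were chosen by their labels and compared with the 13 libraries of 8 other deletion lines that were made in the same library series and keep both copies of the region, namely Deletion A, B and AB with 1 library each and both clones of Deletion C, D, F, H and K. All 15 libraries come from female mESCs of a 129/Sv x Cast/Ei cross, so each cell has a 129/Sv (Mus) and a Cast/Ei (Cast) set of chromosomes. The genotype of the Deletion I line is Rnf12 +/-, Deletion I +/-. Each reference line is also Rnf12 +/- and carries its own deletion on 1 X chromosome in place of Deletion I, so 1 defective copy of Rnf12 (gene symbol Rlim) is common to both sides of every comparison. Each library is 1 clone, selected with a neomycin cassette integrated at the deletion, grown on feeder fibroblasts with LIF and depleted of feeders by pre-plating, and the 2 clones were treated as the replicates of the line, so p-values measure only the spread between such clones. The study used such lines to ask whether loss of a segment of 1 X chromosome changes the genes that remain.

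Female mESCs keep both X chromosomes active until they differentiate, so a gene inside a heterozygous deletion falls from 2 active copies to 1 while the rest of the X chromosome keeps 2. In cells with 1 active X chromosome, X-linked genes are commonly expressed above the level of a single autosomal copy, which is called X-chromosome upregulation. A deletion line allows the remaining copy of a gene to be compared with the same gene in cells with 2 copies. In hybrid cells, reads that cover a base that differs between the parents can be assigned to the Mus or the Cast allele, which shows which copy the reads came from. mESC clones in culture can also gain or lose whole chromosomes, and such changes appear in RNA as a shift of all genes of a chromosome.

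The deletion runs from 114561262 to 134111786 on the X chromosome (mm10) and is poor in genes that mESCs express. Of 167 annotated genes that lie wholly inside it, 29 are protein-coding and 92 are pseudogenes, and 120 had no count in any of the 15 libraries. Only 13 genes had at least 10 counts in at least 2 libraries, of which 6 are protein-coding and 7 are pseudogenes. The protein-coding genes are Ube2dnl1 (ENSMUSG00000050435, 114905012 to 114905941), Nap1l3 (ENSMUSG00000055733, 122394565 to 122397401), Diaph2 (ENSMUSG00000034480, 129749742 to 130465834), Pcdh19 (ENSMUSG00000051323, 133582860 to 133688987), Tspan6 (ENSMUSG00000067377, 133891068 to 133898429) and Cstf2 (ENSMUSG00000031256, 134059187 to 134086819). Cstf2 encodes a subunit of the cleavage stimulation factor, which acts in the 3′ end processing of mRNA, and Diaph2 encodes a formin that assembles actin filaments. The remaining 23 protein-coding genes had at most 10 counts in a library, and 15 of them had none.

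The promoters of Cstf2 and Diaph2, the most highly expressed genes that lose a copy, are shown because the level of these 2 genes sets most of the values given for the deleted region. Each sequence runs 5′ to 3′ on the plus strand over 300 bases of GRCm38.p6 from RefSeq, of which 250 lie before the annotated start and 50 after it, and capitals mark the GC box GGGCGG on either strand. Cstf2 has 1 such match and Diaph2 has 3, and 35.7% of 32851 promoters of this length have at least 1. Neither sequence contains CCAAT or TATAAA on either strand, which occur in 37.4% and 13.6% of the promoters.
Cstf2 promoter, chrX:134058926-134059225: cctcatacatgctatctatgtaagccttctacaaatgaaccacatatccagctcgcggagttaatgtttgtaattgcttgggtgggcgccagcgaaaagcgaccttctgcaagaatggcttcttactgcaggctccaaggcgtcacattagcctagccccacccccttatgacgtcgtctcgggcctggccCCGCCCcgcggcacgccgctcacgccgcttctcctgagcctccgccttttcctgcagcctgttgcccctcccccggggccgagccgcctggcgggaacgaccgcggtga
Diaph2 promoter, chrX:129749492-129749791: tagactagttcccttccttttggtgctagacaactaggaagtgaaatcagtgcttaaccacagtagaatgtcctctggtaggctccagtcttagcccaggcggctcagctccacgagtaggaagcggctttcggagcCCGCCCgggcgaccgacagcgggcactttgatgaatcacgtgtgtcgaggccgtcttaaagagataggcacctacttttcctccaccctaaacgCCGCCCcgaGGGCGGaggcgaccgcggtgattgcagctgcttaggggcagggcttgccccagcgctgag

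The counts were deposited without normalization and sum to 10215157 in clone 1, 10116126 in clone 2 and 8816184 to 10680026 in the reference libraries (median 10403698). Allelic counts made up 12.18% of the total in clone 1, 12.47% in clone 2 and 12.26% to 12.65% in the reference. Levels are given as CPM, the share of a gene in the total count of its library scaled with TMM factors. Summed over 8 stem cell markers, Pou5f1, Nanog and Esrrb among them, clone 1 had 6205 CPM and clone 2 had 6476 CPM, within the reference range of 5681 to 6754. The 10 markers of feeder fibroblasts together reached 196 CPM in clone 1 and 117 CPM in clone 2 against 131 to 473 CPM in the reference, and 8 markers of primitive endoderm reached 47.8 and 34.2 CPM against 31.3 to 43.2 CPM. The 4 trophoblast markers summed to at most 3.84 CPM in all 15 libraries, and Cdx2 and Elf5 were at 0 in clone 1. Rlim gave 7 Mus and 234 Cast counts in clone 1 and 10 Mus and 239 Cast counts in clone 2, and the 13 reference libraries had 4 to 12 Mus counts each. The study places the Rnf12 deletion on the Mus allele. Among the reference, Deletion F clone 2 stands apart with a shifted chromosome 8 and parts of chromosome 14, and results that rest on it are given with and without it.

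Inside the deletion, all allelic reads of protein-coding genes in both clones came from the Mus allele. Clone 1 had 24 Mus and 0 Cast counts and clone 2 had 30 Mus and 0 Cast counts, so the Mus share was 100% in each, with 95% Wilson intervals of 86.2% to 100% and 88.7% to 100% that cover counting error only. The 13 reference libraries had 4 to 17 Cast counts each, and their Mus share was 48.1% at the lowest, 59.4% at the median and 73.7% at the highest. No reference library overlapped the clones, and this difference had p = 0.019 in an exact permutation test (two-sided, 2 against 13 libraries), which is the smallest p that the 105 arrangements allow. Loss of the allele is what the line was made for, so this value describes the line. Protein-coding genes inside Deletion I had no Cast reads, whereas Rlim had few Mus reads (7 and 10), so the 2 deletions of the line affect different X chromosomes.

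**Figure D1:**
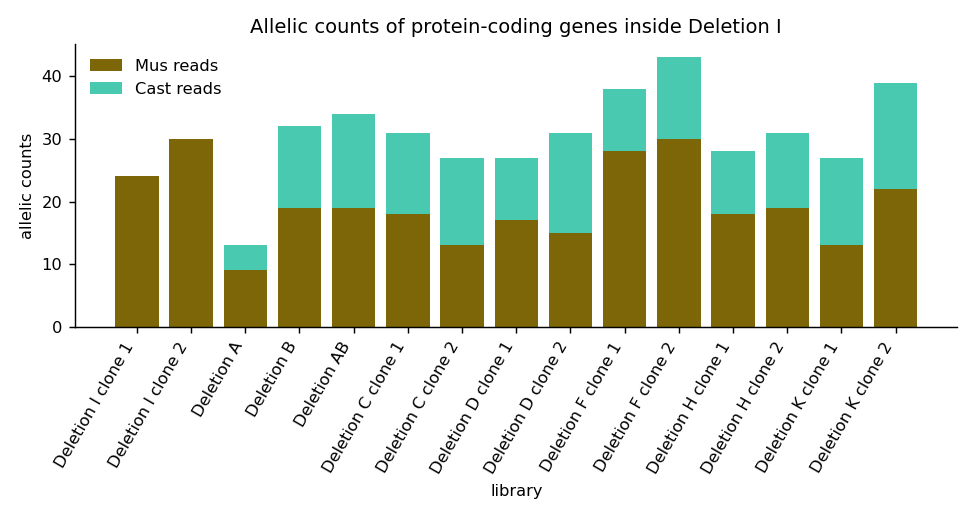
Allelic counts of protein-coding genes inside Deletion I, stacked by allele (y axis, counts) for each of the 15 libraries (x axis). Both Deletion I clones have Mus counts only (24 and 30), and every other library has between 4 and 17 Cast counts.

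Gene by gene, all but 1 of the reads that carry this result came from 3 genes. Cstf2 had 15 Mus counts in clone 1 and 19 in clone 2 with 0 Cast counts in both, against 132 Mus and 86 Cast counts summed over the reference. Diaph2 had 8 and 5 Mus counts with 0 Cast counts in both, against 68 Mus and 57 Cast counts. Nap1l3, of the nucleosome assembly protein family, had 1 and 5 Mus counts with 0 Cast counts, against 32 Mus and 14 Cast counts. The pseudogenes in the region behaved differently: 24 of 30 allelic counts in clone 1 and 17 of 21 in clone 2 were Cast, close to the 268 of 345 in the reference. These came mainly from Gm5648 (14 and 7 Cast counts) and Mdm4-ps (10 and 9 Cast counts). Reads of a processed pseudogene can stem from its parent gene elsewhere, and the sources of these reads were not tested.

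The total level of the deleted genes was not the same in the 2 clones. The 29 protein-coding genes summed to 147 CPM in clone 1 and 276 CPM in clone 2, against 207 to 264 CPM in the reference (mean 243 ± 16.6, SD, n = 13). Clone 1 lay below all 13 reference libraries at 0.605 times their mean, and clone 2 lay above all 13 at 1.14 times their mean. The line as a whole therefore did not differ from the reference in a test (p = 0.267, exact permutation test, two-sided). Between the clones the ratio of total counts inside the deletion was 1.88 (clone 2 over clone 1, exact 95% interval 1.76 to 2.00, counting error only). The sum was not tested between the clones, and its genes were tested one by one.

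Cstf2 carried most of this difference. It was at 100 CPM in clone 1 (980 counts) and 206 CPM in clone 2 (2080 counts), and the reference ran from 154 CPM over a median of 173 CPM to 181 CPM. Clone 1 was thus lower, and clone 2 higher, than every reference library. Against the reference the log2 fold change was -0.76 (SE 0.13, adjusted p = 0.0122, edgeR) in clone 1, where Cstf2 was 1 of 198 genes called of 16340 tested (1.21%). In clone 2 it was 0.28 (SE 0.12, adjusted p = 1, edgeR), and no gene of the 16340 was called in that clone (0%). The direct contrast of clone 1 with clone 2 gave -1.04 (SE 0.16, adjusted p = 0.123, edgeR), with 0 of 16340 genes called (0%) and 700 at an unadjusted p under 0.05. DESeq2 gave the same contrast an adjusted p of 2.4e-07 for Cstf2 and called 22 of the 6203 genes to which it gave an adjusted p (0.355%).

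Diaph2 showed the same order of the clones with wider error. It was at 28.1 CPM in clone 1 and 50.6 CPM in clone 2, and the reference ran from 36.3 over a median of 52.3 to 74.4 CPM. Clone 1 was below all 13 reference libraries, as were 10.4% of all genes tested, and clone 2 lay inside their range. Its log2 fold change was -0.91 (SE 0.31, adjusted p = 0.20, edgeR) in clone 1 and -0.06 (SE 0.29, adjusted p = 1) in clone 2. Nap1l3 was at 1.33 CPM in clone 1, below the reference range of 1.46 to 5.67 CPM, and at 2.48 CPM in clone 2.

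The 3 other protein-coding genes inside the deletion had no common order of the clones. Tspan6, a tetraspanin of the cell membrane, was at 11.98 CPM in clone 1 and 8.52 CPM in clone 2 against 6.31 to 16.3 CPM in the reference, so both clones lay inside the range of 2-copy cells. Pcdh19, a cell adhesion molecule of the protocadherin family, was at 3.17 and 3.27 CPM against 1.75 to 6.61 CPM. Ube2dnl1 was at 1.23 and 4.06 CPM against 0.681 to 5.22 CPM, with clone 1 again below clone 2. The high end was Deletion F clone 2. Every other reference library was at 2.44 CPM or less, below clone 2 of Deletion I. None of the 3 was called in either clone, and they had 12 to 117 counts per clone. Without Cstf2 the summed level was 46.5 CPM in clone 1 and 69.7 CPM in clone 2 against 52.4 to 89.6 CPM (p = 0.114, exact permutation test, two-sided).

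**Figure D2:**
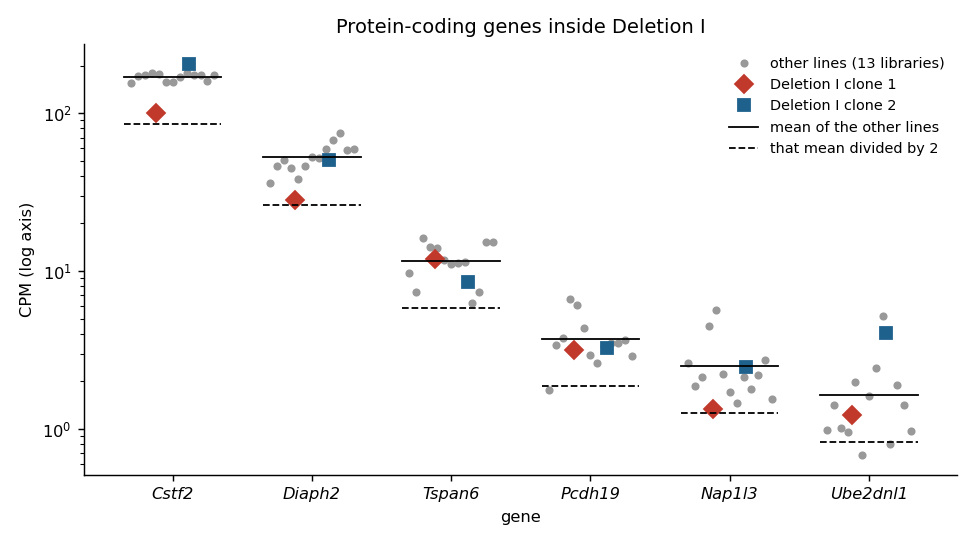
Level in CPM (log axis) of the 6 protein-coding genes inside Deletion I (x axis) in clone 1 (diamonds), clone 2 (squares) and the 13 reference libraries (grey points), with the reference mean as a solid line and that mean divided by 2 as a dashed line. For Cstf2 and Diaph2 clone 1 (100 and 28.1 CPM) lies near the dashed line, and clone 2 (206 and 50.6 CPM) lies near or above the solid line.

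Counting per remaining copy offsets the deleted genes equally in both clones, so the difference between the clones stays as given above. When the counts of deleted genes were offset for 1 copy against 2, Cstf2 in clone 2 was higher by 1.28 on the log2 scale (SE 0.11, adjusted p = 1.07e-05, edgeR) and was the only gene called in that clone (0.00612% of 16340). In clone 1 the same value was 0.24 (SE 0.12, adjusted p = 0.43), while 206 other genes were called (1.26%). Diaph2 per copy was 0.94 (SE 0.26, adjusted p = 1) in clone 2 and 0.09 (SE 0.29, adjusted p = 0.967) in clone 1. With the clones averaged, Cstf2 per copy was 0.85 (SE 0.14, adjusted p = 0.0286, edgeR) and was among 9 genes called for the line (0.0551%), an average of 2 clones that differ. Higher output of 1 Mus copy and the presence of 2 Mus copies in clone 2 cannot be told apart from these counts.

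The allele reads gave the retained copy a smaller contrast between the clones with a wide interval. Mus reads of the protein-coding genes inside summed to 2.46 CPM (Mus counts over the total library) in clone 1 and 2.97 in clone 2, against 0.986 to 2.80 in the reference (mean 1.79 ± 0.53, SD, n = 13). Clone 1 was above 11 of the 13 reference libraries and clone 2 above all 13, at 1.37 and 1.66 times their mean, and the line did not pass the test (p = 0.0762, exact permutation test, two-sided). The ratio of Mus reads in clone 2 to clone 1 was 1.21, with an exact 95% interval from 0.684 to 2.16 that includes the ratio of 1.88 found for total counts. With clone 1 or clone 2 of Deletion F left out the same exact permutation test gave p = 0.044, at 0.67 on the log2 scale in each case.

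Outside the borders no X-linked gene next to the deletion was called in either clone. The nearest expressed gene on the proximal side, Dach2, a transcription cofactor (ENSMUSG00000025592, 113297510 to 113836386), was at 3.79 CPM in clone 1 and 1.29 CPM in clone 2 against 0.739 to 1.78 CPM, and its log2 fold change of 1.57 in clone 1 was not called (SE 0.41, adjusted p = 0.0719, edgeR). Chm, next to it (113040593 to 113185517), encodes a protein of small GTPase prenylation and was inside the reference range in both clones (34.5 and 42.8 CPM against 18.6 to 46.1 CPM). Its allelic reads were 12 Mus and 1 Cast in clone 1 but 12 Mus and 8 Cast in clone 2, against 109 Mus and 73 Cast over the reference. Dach2 had no allelic reads, and both genes lie in the region that Deletion H removes. On the distal side Xkrx (134149043 to 134162076) was at 1.43 and 0.891 CPM against 0 to 3.12 CPM. Trmt2b, a tRNA methyltransferase gene (134222339 to 134276984), was at 13.0 and 11.8 CPM against 6.99 to 12.9 CPM and kept 3 Cast counts in each clone.

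Over 193 X-linked genes that neither Deletion I nor a reference deletion covers, the median deviation from the reference was 0.01 in clone 1 and -0.01 in clone 2 on the log2 scale, within the -0.04 to 0.05 of the reference libraries (p = 0.933, exact permutation test, two-sided). Their Mus share, Rlim left out, was 56.1% and 55.7% against 54.6% to 56.3% (p = 0.248, exact permutation test). No X-linked gene was called in clone 2, where none of all 16340 genes was. In clone 1, 2 of 659 X-linked genes were called (0.30%), against 0.32% of 14178 other genes, the 2 shifted chromosomes described below left out. Besides Cstf2 this was Klhl13, an adaptor of a cullin ubiquitin ligase, at 309 CPM in clone 1 and 649 CPM in clone 2 against 576 to 1241 CPM (log2 fold change -1.60, SE 0.30, adjusted p = 0.0188, edgeR, clone 1). Deletions B and AB remove 1 copy of Klhl13 and were at 965 and 1092 CPM, so the lines with 1 copy did not set the low end. That end was Deletion F clone 2 (576 CPM). Every other reference library was at 792.6 CPM or more, above clone 2 of Deletion I. Xist, the RNA that silences an X chromosome, was at 0.205 and 1.19 CPM against 0.945 to 9.65 CPM and was not called (adjusted p = 0.291, edgeR).

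On the autosomes the clones parted on chromosomes 1 and 14. In clone 1 the median deviation of 631 expressed genes on chromosome 1 was 0.56 on the log2 scale, a 1.48-fold level, and that of 390 genes on chromosome 14 was 0.58, a 1.49-fold level. In clone 2 the same medians were 0.04 and 0.03, and the reference libraries ran from -0.03 to 0.06 and from -0.05 to 0.07. Clone 1 thus lay far outside the reference on both chromosomes and clone 2 inside it on both. On chromosome 14 the top of that range was Deletion F clone 2 (0.071). The next highest reference library, Deletion K clone 2, was at 0.026, below clone 2 of Deletion I at 0.034. On the 17 other autosomes the medians of clone 1 ran from -0.07 to 0.04 and those of clone 2 from -0.0045 to 0.06. Clone 1 lay outside the range of the 13 libraries on 3 of these 17 autosomes for the level, and clone 2 on 4. For the Mus share clone 1 did so on none and clone 2 on 2. With the 2 clones averaged, the tests over chromosomes and measures gave an adjusted p of 0.508 at the lowest (exact permutation tests, two-sided, 40 tests) and each clone alone is given against the range of the 13 libraries.

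The allele counts showed which copy rose. The Mus share in clone 1 was 68.0% on chromosome 1 (95% Wilson interval 67.8% to 68.3%, 106094 allelic counts) and 65.6% on chromosome 14 (65.2% to 66.0%, 52757 counts), where the intervals cover counting error only and are narrower than the spread of the reference libraries. In clone 2 it was 51.4% (51.0% to 51.7%, 73689 counts) and 48.2% (47.7% to 48.7%, 37539 counts), and in the reference it was 51.16% to 52.96% and 46.3% to 50.2%. The low end on chromosome 14 was Deletion F clone 2. The next lowest reference library, Deletion B, was at 48.72%, above clone 2 of Deletion I. The ratio of Mus to Cast counts in clone 1 was 1.98 times the reference median on each of the 2 chromosomes. In clone 2 it was 0.981 and 0.965 times that median.

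Taken by allele, genes on these chromosomes rose on the Mus copy in clone 1. The median Mus level of 347 genes on chromosome 1 was 2.03 times the reference and that of 216 genes on chromosome 14 was 2.01 times. The median Cast level was 1.01 times on chromosome 1 (314 genes) and 1.00 times on chromosome 14 (214 genes). In clone 2 all 4 medians were between 1.04 and 1.07 times. In the fit of Mus counts, the median log2 fold change in clone 1 was 0.97 over 553 genes on chromosome 1. It was 0.98 over 330 genes on chromosome 14, against 0.01 over all 9555 genes of that fit. In clone 2 these medians were -0.011 and 0.0004, against -0.005. In the fit of Cast counts the medians in clone 1 were 0.0003 on chromosome 1 and -0.05 on chromosome 14, against -0.04 over all 9243 genes of that fit.

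**Figure D3:**
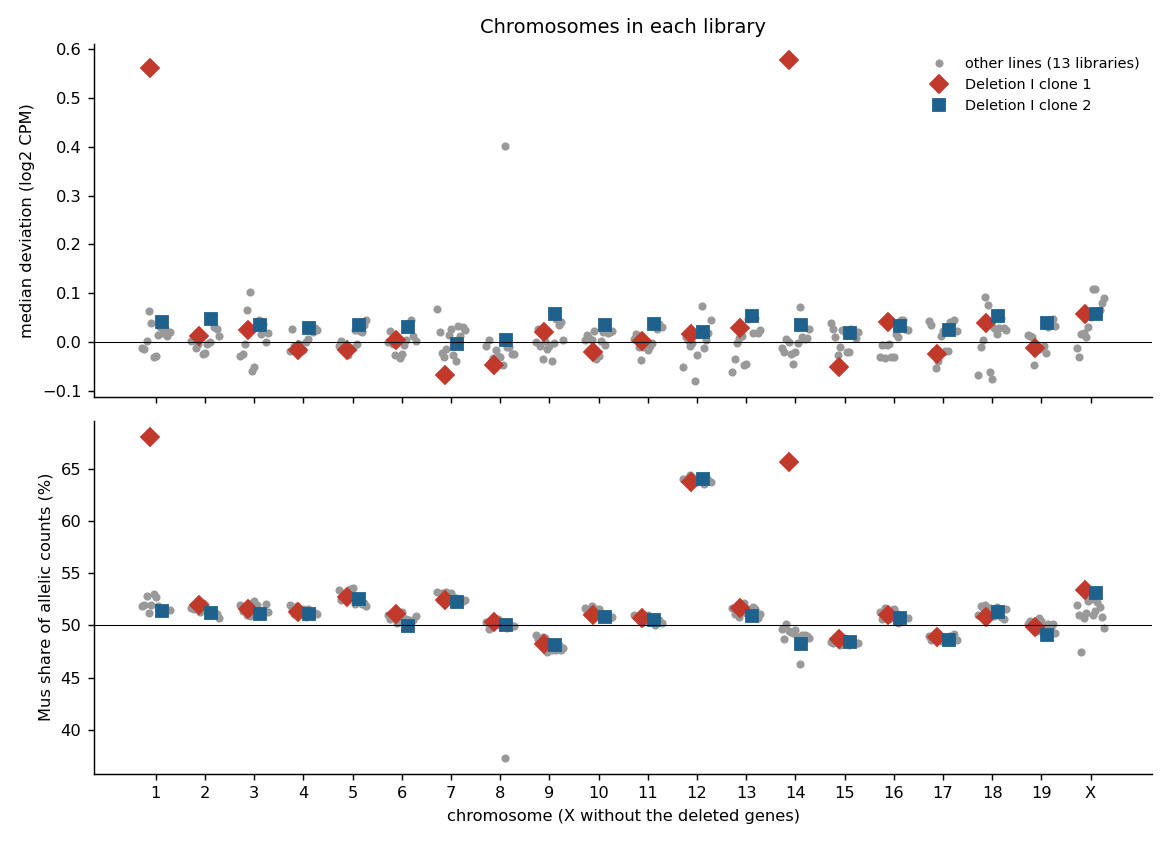
Median deviation from the other lines on the log2 CPM scale (top) and Mus share of allelic counts in percent (bottom) for each chromosome (x axis) in clone 1 (diamonds), clone 2 (squares) and the 13 reference libraries (grey points). Clone 1 stands apart on chromosome 1 (0.56 and 68.0%) and chromosome 14 (0.58 and 65.6%), and a single reference library, Deletion F clone 2, stands apart on chromosome 8 (0.40 and 37.3%). The X chromosome is shown without the genes of Deletion I but with genes that reference deletions cover.

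The shift ran along the whole of both chromosomes. In windows of 10 Mb with at least 5 expressed genes, clone 1 was above all 13 reference libraries in 19 of 20 windows of chromosome 1 for the level and in 19 of 20 for the Mus share. The exceptions were the window from 20 to 30 Mb for the level, at 0.08 with a Mus share of 65.9%, and the window from 140 to 150 Mb for the share, at 79.4% against 71.0% to 80.4%. On chromosome 14 it was above the reference in 10 of 12 windows for each measure, and in 12 of 12 without Deletion F clone 2. That library had up to 0.78 on the log2 scale with a Mus share of 35.4% from 100 to 110 Mb, and -0.99 with 99.3% from 120 Mb to the end. Clone 2 was above the reference in 2 windows of chromosome 1 and in none of chromosome 14 for the level. For the Mus share clone 2 was below all 13 in 3 windows of chromosome 1 and 1 window of chromosome 14.

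**Figure D4:**
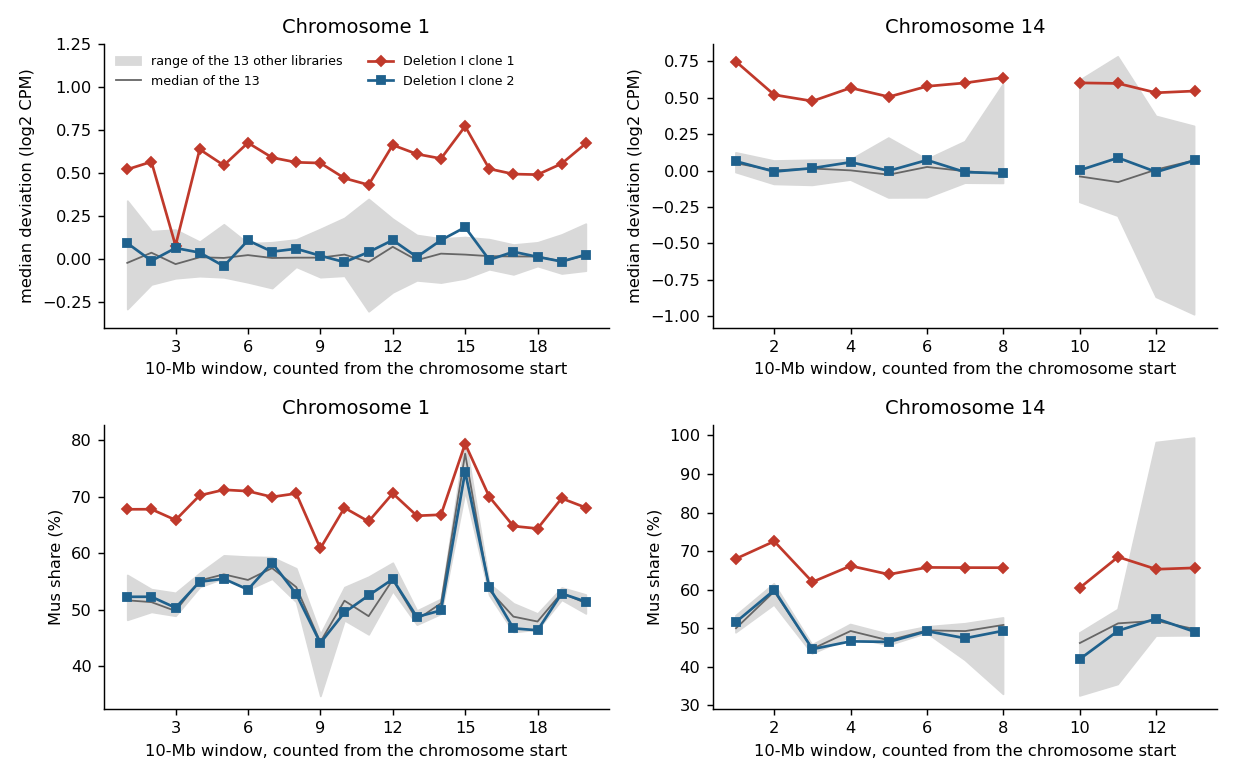
Median deviation on the log2 CPM scale (top) and Mus share in percent (bottom) in 10-Mb windows counted from the start of chromosome 1 (left) and chromosome 14 (right), for clone 1 (diamonds), clone 2 (squares) and the range and median of the 13 reference libraries (grey band and line), with windows of under 5 genes left out. Clone 1 runs above the band in 19 of 20 and 10 of 12 windows for the level. Clone 2 leaves the band in 2 windows of chromosome 1 for the level. For the Mus share clone 2 leaves it in 3 windows of chromosome 1 and 1 of chromosome 14.

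Gene by gene, clone 1 differed from the reference in 198 genes, of which 168 were higher (1.03% of the genes tested) and 30 were lower. Chromosome 1 held 106 of the higher genes among 938 tested (11.3%) and chromosome 14 held 43 among 565 (7.61%), with 1 lower gene on chromosome 1 and none on chromosome 14. Elsewhere 46 of 14178 genes off the X chromosome were called (0.324%), 19 higher and 27 lower. Counted without a test, 502 genes on chromosome 1 (53.5%) and 277 on chromosome 14 (49.0%) lay above all 13 reference libraries in clone 1, against 12.9% of all genes. In clone 2 these were 5.44% and 4.78%, against 4.85% of all genes. Clone 2 had 515 genes at an unadjusted p under 0.05 and none at an adjusted p under 0.05 (edgeR), and DESeq2 called 4 (0.0245%), all lower.

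Among the genes that separated the clones most clearly on chromosome 1 were Map4k4, Arpc2, Enah and Kifap3. Map4k4, a protein kinase, was at 322 CPM in clone 1 and 180 CPM in clone 2 against 197 to 254 CPM, so that clone 1 was above and clone 2 below every reference library. Arpc2, a subunit of the complex that branches actin filaments, was at 252 and 154 CPM against 132 to 161 CPM. Enah, another actin regulator, was at 888 and 485 CPM against 483 to 688 CPM. These 4 were called higher in clone 1 (log2 fold changes of 0.53 to 0.77, adjusted p from 0.00422 to 0.0465, edgeR). Between the clones edgeR called none of the 4 (adjusted p from 0.469 to 0.737), and DESeq2 called all 4 (log2 differences of 0.71 to 0.88, adjusted p from 0.00418 to 0.0481).

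On chromosome 14 the corresponding genes were Fam213a, Rnf17, Glud1, Ube2e1 and Psmc6. Fam213a, which is related to the peroxiredoxins, was at 47.8 CPM in clone 1 and 11.2 CPM in clone 2 against 14.7 to 29.3 CPM, with clone 1 above and clone 2 below all reference libraries. Rnf17, a germline gene, was at 105 and 44.2 CPM against 44.4 to 72.2 CPM. Psmc6, an ATPase of the proteasome, was at 261 and 166 CPM against 129 to 162 CPM, so that both clones were higher. In clone 1 the 5 genes had log2 fold changes of 0.56 to 1.21 (adjusted p from 0.00844 to 0.0371, edgeR), and between the clones edgeR called none (adjusted p from 0.402 to 0.744). DESeq2 called Rnf17 between the clones (log2 difference 1.26, adjusted p = 0.012) but not Glud1, Ube2e1 or Psmc6 (adjusted p from 0.0821 to 0.0874), and gave Fam213a no adjusted p.

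How many genes differed from the other lines over both clones depended on the fit. With the 2 clones as replicates, edgeR called 3 of 16340 genes (0.0184%), 1 higher and 2 lower, none on chromosomes 1 or 14 or on the X chromosome, and 1832 genes had an unadjusted p under 0.05. DESeq2 called 244 of the 13805 genes to which it gave an adjusted p (1.77%), 80 higher and 164 lower, with 59 of them on chromosomes 1 and 14. An edgeR fit with 1 term per line called 1607 genes (9.83%). Both clones were above all 13 reference libraries for 308 genes (1.88%) and below all 13 for 421 genes (2.58%). Per cell, neither edgeR nor DESeq2 called a protein-coding gene inside the deletion for the line.

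Pclo, which encodes the presynaptic scaffold protein piccolo (chromosome 5, 14514918 to 14863459), fell most among the 3 genes that edgeR called. It was at 1.13 CPM in clone 1 and 1.59 CPM in clone 2, and the reference ran from 5.74 over a median of 8.62 to 13.7 CPM (log2 fold change -2.68, SE 0.37, adjusted p = 0.0145, edgeR). Both clones were far below the lowest reference library. In the reference its allelic reads were mostly Cast (207 Cast and 23 Mus counts summed), and the clones had 0 Cast counts each with 0 and 2 Mus counts.

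Rhpn2 (chromosome 7, 35334170 to 35392289) was at 25.7 and 29.5 CPM against 39.3 to 53.1 CPM (median 48.3), which is -0.78 on the log2 scale (SE 0.12, adjusted p = 0.0323, edgeR). Both alleles were read in each clone, with 28 Mus and 21 Cast counts in clone 1 and 31 Mus and 37 Cast counts in clone 2. Gm13889 (chromosome 2, 93955810 to 93957201), a gene without a known role, was the only gene called higher. It was at 5.94 CPM in clone 1 and 1.98 CPM in clone 2 against 0.277 to 1.17 CPM (log2 fold change 2.22, SE 0.33, adjusted p = 0.0223, edgeR), so both clones were above the reference but 1 clone far more so. Without clone 1, which leaves the line with 1 library, no gene was called and the log2 fold changes were -2.47 for Pclo, -0.69 for Rhpn2 and 1.22 for Gm13889. The call of Rhpn2 was also lost with no filter or without Deletion C clone 2, F clone 1, H clone 2, K clone 1 or K clone 2 (adjusted p from 0.0506 to 0.0732, edgeR). That of Gm13889 was lost without Deletion F clone 1 (adjusted p = 0.0502, edgeR) or with the Deletion C-G library added to the reference (log2 fold change 2.06, adjusted p = 0.0855, edgeR). Against the 2 XX Rnf12 libraries, which are Rnf12 +/- without a further deletion and belong to another library series, no gene was called. The log2 fold changes were then -1.59 for Pclo, -0.85 for Rhpn2 and 0.95 for Gm13889 (adjusted p from 0.328 to 0.499, edgeR).

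Outside chromosomes 1, 14 and X, 38 protein-coding genes with a mean of at least 1 CPM were called in clone 1, of which 25 were lower and 13 higher. Crmp1, a neuronal protein of axon guidance, was at 6.55 CPM in clone 1 and 26.9 CPM in clone 2 against 24.9 to 48.8 CPM (log2 fold change -2.54, SE 0.33, adjusted p = 0.00294, edgeR, clone 1). Lars2, the leucyl-tRNA synthetase of mitochondria, was at 1426 and 286 CPM against 260 to 532 CPM (log2 fold change 1.99 in clone 1, adjusted p = 0.00294). In DESeq2, Lars2, Mir6236 and Gm15564 were higher in clone 1 than in clone 2 by 2.26 to 2.48 on the log2 scale, and Crmp1 was lower by 2.04. For Crmp1 the low end of the reference was Deletion F clone 2. Every other reference library was at 32.46 CPM or more, above clone 2 of Deletion I. The total counts of Lars2 were 13933 in clone 1 and 2885 in clone 2. Its allelic counts did not follow, at 21 Mus and 10 Cast in clone 1 and 24 Mus and 9 Cast in clone 2. Where the added reads of Lars2 came from was not tested. Calb2, which encodes the calcium-binding protein calretinin, was at 28.8 and 12.6 CPM against 4.75 to 13.1 CPM (1.74 in clone 1, adjusted p = 0.0215). Crmp1, Lars2, Calb2, Klhl13 and the DESeq2 genes were chosen after their values were seen.

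**Figure D5:**
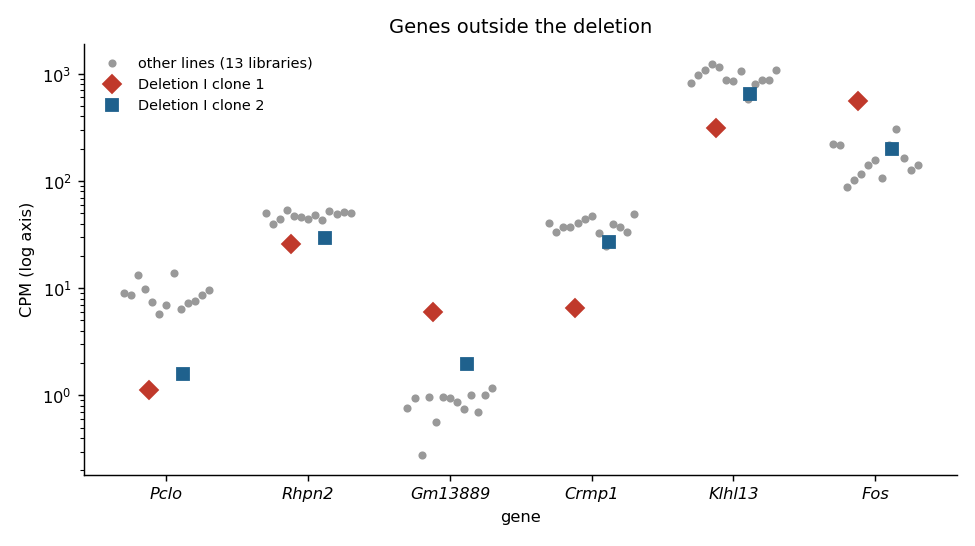
Level in CPM (log axis) of 6 genes outside the deletion (x axis) in clone 1 (diamonds), clone 2 (squares) and the 13 reference libraries (grey points). Both clones lie outside the reference for Pclo, Rhpn2 and Gm13889, whereas for Crmp1, Klhl13 and Fos clone 1 alone does (6.55, 309 and 560 CPM). For Crmp1 and Klhl13 the only reference library below clone 2 is Deletion F clone 2 (24.9 and 576 CPM).

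Lists of genes tied to the state of mESCs and to the deleted genes were read against the share of all genes called. In 18 lists with 258 tested genes, edgeR called none for the line. DESeq2 called 9 of the 239 to which it gave an adjusted p (3.77%, against 1.77% of all genes), 1 higher and 8 lower. In clone 1, edgeR called 2 of 258 (0.775%, against 1.21% of all genes), and DESeq2 called 13 of 238 (5.46%, against 3.55%), 3 higher and 10 lower. Fos, an immediate early transcription factor in the list of FGF and MAPK feedback targets, was at 560 CPM in clone 1 and 198 CPM in clone 2 against 86.8 to 304 CPM (log2 fold change 1.80, SE 0.40, adjusted p = 0.0345, edgeR). Fdps, an enzyme of cholesterol synthesis, was at 7.37 and 13.3 CPM against 11.8 to 18.8 CPM (log2 fold change -1.04, adjusted p = 0.0467). In clone 2 neither tool called a member, and DESeq2 called 0.0245% of all genes there.

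Of 12 core stem cell genes, 11 lay within the range of the other lines in both clones, and of 15 naive pluripotency factors 8 did. Over all genes tested, 12.9% lay above and 10.4% below all 13 reference libraries in clone 1, and 4.85% and 6.78% in clone 2. Pou5f1 was at 1431 CPM in clone 1 and 1375 CPM in clone 2 against 1003 to 1494 CPM, Sox2 at 373 and 374 CPM against 309 to 387 CPM, and Nanog at 538 and 506 CPM against 409 to 591 CPM. Esrrb was at 1716 and 1596 CPM against 994 to 1794 CPM. Klf4, a transcription factor of the naive state, was at 803 and 744 CPM against 291 to 597 CPM, above all 13 in both clones, and DESeq2 but not edgeR called it for the line (edgeR log2 fold change 0.84, adjusted p = 0.156). Dppa3, a maternal factor that is also expressed in naive cells, was at 26.4 and 25.5 CPM against 28.6 to 78.6 CPM, below all 13 in both clones (adjusted p = 0.228, edgeR). Klf4 and Dppa3 were chosen after their values were seen. Of the 15 naive factors 4 lie on chromosomes 1 and 14, and the list's median log2 fold change for the line was 0.21 with these and 0.10 without them, with 0 called by edgeR and 1 by DESeq2. Tfcp2l1, another naive factor, on chromosome 1, was at 1468 CPM in clone 1 and 776 CPM in clone 2 against 305 to 822 CPM, and was not called (clone 1, adjusted p = 0.0993, edgeR). In the formative and primed list edgeR called 0 of 11 genes for the line and DESeq2 called 2 lower, with a median of -0.91 against -0.01 for all genes. In clone 1 DESeq2 called 4 of these genes lower and 1 higher, and edgeR called 0. The median of 19 feeder markers was -0.47 for the line, -0.21 in clone 1 and -0.83 in clone 2, with 0 called by either tool. These markers summed to 3832 CPM in clone 1 and 2403 CPM in clone 2 against 2040 to 3278 CPM. The part of feeder cells in the medians of the lists was not tested.

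Partners and relatives of the deleted genes were also tested one by one, 23 of 24 having enough counts. Neither tool called any in either clone, and the list's median log2 fold change was -0.09 in clone 1 and -0.13 in clone 2. Cstf2t, the retrogene of Cstf2 on chromosome 19, was at 63.8 and 73.9 CPM against 45.8 to 81.5 CPM. Cstf1 and Cstf3, the other subunits of the cleavage stimulation factor, were at 97.5 and 97.7 CPM against 92.7 to 116 CPM and at 68.3 and 54.3 CPM against 31.6 to 59.5 CPM. Of the other formins, Diaph1 was at 185 and 204 CPM against 209 to 294 CPM, below all reference libraries in both clones but called for the line by DESeq2 alone (log2 fold change -0.35, adjusted p = 0.199, edgeR), and Diaph3, on chromosome 14, was at 80.7 and 59.8 CPM against 42.7 to 92.9 CPM.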

How the data were processed

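Bulk RNA-seq of 15 of the 30 libraries was used, in groups taken from the genotype labels. The authors trimmed paired reads of 50 bases (Trim Galore 0.6.7), aligned them (HISAT2 2.2.1) to mm10 masked at SNPs between the parents, assigned them to alleles with SNPsplit and counted them on gene exons. The deposited table holds unnormalized counts, for all reads and for each allele. The counter is given as featureCounts in the study's methods and as HTSeq 0.12.4 in the submitters' notes. Of 55421 genes, 55154 were matched to GENCODE M21 (GRCm38) for positions, and the 267 others (0.004% of a library's counts or less) were left out.

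The 16340 genes that reached 10 counts in 2 or more libraries were fitted with edgeR 4.0.16 (quasi-likelihood test, TMM factors, R 4.3.3), once with the 2 clones as 1 group and once with each clone as its own group, in which a single clone is assumed to vary like the reference libraries. A gene was called at an adjusted p (Benjamini-Hochberg over all genes tested) under 0.05. Allele counts were fitted with the library sizes and factors of the total counts. Deviations per chromosome are medians over genes with a mean of at least 5 CPM of log2(CPM + 0.5) minus the mean of the reference libraries other than the one described, and levels by allele used genes with a mean of at least 20 counts of that allele and a pseudocount of 0.05. Single values were compared by exact permutation tests (scipy 1.17.1, Python 3.11.15). DESeq2 1.42.0 was the other tool. In a simulation of the comparison with 2 clones, 100 genes shifted by 1 on the log2 scale gave 59 calls, 100 shifted by 2 gave 93, and 16140 genes left alone gave 9. For clone 1 alone these were 37, 82 and 5. The shifted genes were drawn from those with an expected mean of at least 20 counts, so genes with fewer counts are not covered.

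Genes named are the protein-coding ones inside the deletion and the 2 nearest on each side, called protein-coding genes outside it with both clones beyond the reference, called list members, the 5 genes on chromosomes 1 and 14 with the smallest adjusted p between the clones, and 6 stem cell and X-linked controls. Of these, 1 gene is left out of the text. The line, the gene lists and this rule were chosen with earlier results of these data known. Replicate numbers did not pair the clones across lines (correlations of the deviations of same-numbered clones from -0.102 to 0.167 over 15 pairs of lines). Alternatives covered the tool, scaling, filters, gene sets, the reference and each library left out.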

Additional observations from a re-analysis of the deposited data

How the results depend on the processing

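The count of genes called for the line depended on the tool, the reference and the clone. Instead of 3 genes, DESeq2 called 244, a fit with 1 term per line called 1607, the per-copy fit 9, and the XX Rnf12 libraries as the reference gave 0. Leaving out each library in turn gave 0 to 198 genes: 0 without Deletion I clone 1 and 198 without Deletion I clone 2, 5 without Deletion A or Deletion H clone 1, and 1 without Deletion F clone 1. Without Deletion I clone 1 and Deletion F clone 2 together, an alternative chosen after seeing the data, it was 0. The replicate block, for which the numbers do not pair the samples, gave 2 genes, without Rhpn2 (adjusted p = 0.053). For clone 1, DESeq2 called 479 genes and no filter gave 88 against 198, with 86 genes in both, and 229 were called without Deletion F clone 2. For clone 2, DESeq2 called 4 against 0. List members called were 9 with DESeq2 against 0. The cause of these differences was not tested.

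With all gene types, the Mus share inside was 55.6% in clone 1 and 66.7% in clone 2, since the pseudogenes keep Cast reads. The log2 ratio of the level inside went from -0.20 to 0.18 without clone 1 and ranged from -0.73 to 0.18 over the libraries left out. The level of the retained allele passed the threshold without Deletion F clone 1 (0.67) or clone 2 (0.67), with a range of 0.46 to 0.73. X-linked genes outside the deletion had a difference of -0.00055 on the log2 scale, which became 0.00079 with protein-coding genes only, 0.012 with factors from the other autosomes and 0.0083 without clone 2 (range -0.017 to 0.0083). Chromosome 14 in clone 1 was 0.54 with genes of at least 1 CPM on average, against 0.58. All other values for chromosomes 1 and 14 moved by less than the spread of the reference libraries. Allelic reads inside the deletion number at most 43 a library, which limits what can be said of the retained copy.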
